A study of Mus musculus with 34 samples.

Results

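The D4 and C2 mouse embryonic stem (ES) cell lines were compared at early passage, D4 minus C2. The comparison was made on the 6 RNAs that the labels name as early-passage D4 (3 RNAs) and early-passage C2 (3 RNAs). Each RNA was hybridised to 2 Affymetrix array types, MOE430A and MOE430B. The comparison therefore rests on 12 of the 34 arrays of the study, which hold 6 of its 17 RNAs. The members were chosen by line and passage alone, with no measured value.

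Both lines were derived from C57BL/6 blastocysts, and no transgene or induced mutation is given for either. Early-passage D4 cells and early-passage C2 cells were both grown in DMEM with 15% fetal bovine serum and LIF, at 5% CO2 and 37 C, on feeder layers of mouse embryonic fibroblasts. Per the labels, early-passage cells of both lines gave low chimerism and no germline transmission. The 2 groups thus share passage, medium and outcome and differ in the line. Their array days also differed, as given below. A single line stands on each side, so a difference belongs to these lines and not to a class of lines. The labels put purity above 90% for D4 and at about 90% for C2, with feeder fibroblasts as the contaminating cell. Before RNA extraction, lightly trypsinized cells were replated for 1 hour. The other RNAs came from late-passage cells of D4 and C2, attached (3 RNAs each) and detached (2 RNAs for D4 and 3 for C2). These were grown in another medium, with high chimerism and with germline transmission. Separate cultures are not stated for the RNAs of a line, so the spread behind each p-value may be technical.

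ES cells keep the capacity to form all tissues through a network of transcription factors around Pou5f1, Sox2 and Nanog, which LIF sustains through STAT3. Autocrine FGF signalling through ERK pushes the cells towards differentiation, and its feedback genes report its activity. Independently derived lines of one strain can differ in genotype, in epigenetic state and in the share of cells that have left the pluripotent state.

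Levels are given as log2(signal + 16), where signal is the deposited MAS5 intensity, and differences are D4 minus C2 on that scale. The early arrays had a median level of 9.22 to 9.44 on MOE430A and of 9.74 to 9.87 on MOE430B. The ratio of 3' to 5' probe sets is a sign of RNA quality. For Actb it was 0.887 to 1.29 on the 12 early arrays, highest in C2 replicate 3 on MOE430B. The late arrays enter the shared spread and the tests against late cells. D4 late attached replicate 3 had the highest Actb ratio of each array type, 1.84 on MOE430A and 1.92 on MOE430B. It was also the 1 MOE430A array with another protocol in its header. C2 late attached replicate 1 had the highest 5th percentile of signal, 109 on MOE430A and 177 on MOE430B. The test took in probe sets brighter than the array median on 2 or more of the 17 arrays of a type, 14160 on MOE430A and 16213 on MOE430B. All 6 early MOE430A arrays came from 1 chip lot, but the D4 arrays were run on one day and the C2 arrays on another. Line and day cannot be told apart there. On MOE430B, C2 replicates 1 and 3 were also run on another day than the D4 arrays, and C2 replicate 2 on the same day.

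Between early-passage D4 and C2 cells, 1 probe set passed the test. Scnn1a, the alpha subunit of the epithelial sodium channel ENaC, was higher in D4 on MOE430A. It was the single probe set of 14160 (0.00706%) at an adjusted p under 0.05 in limma with D4 higher, and 0 (0%) were lower. On MOE430B, 0 of 16213 probe sets passed in either direction (0%), and the smallest adjusted p in limma was 0.0669, at Camk2n1. At an unadjusted p under 0.05 in limma, 897 probe sets stood out on MOE430A (6.33%) and 748 on MOE430B (4.61%). Of the 897, 523 were higher (3.69%) and 374 lower (2.64%) in D4, and of the 748, 376 were higher (2.32%) and 372 lower (2.29%). The 3 D4 values all lay above or all below the 3 C2 values at 1485 probe sets on MOE430A (10.5%) and at 1585 on MOE430B (9.78%). D4 was the upper line at 847 (5.98%) and the lower at 638 (4.51%) on MOE430A, and at 744 (4.59%) and 841 (5.19%) on MOE430B. A difference of 2-fold or more was seen at 432 (3.05%) and 1767 (10.9%) probe sets.

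The precision differed between the array types. The median standard error of the difference was 0.28 on MOE430A and 0.51 on MOE430B, against a median absolute difference of 0.22 and 0.31. The 95% interval lay within a 2-fold change in both directions at 8960 probe sets (63.3%) on MOE430A and at 4298 (26.5%) on MOE430B. For the others the data do not show that the lines were within 2-fold of each other.

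**Figure D1:**
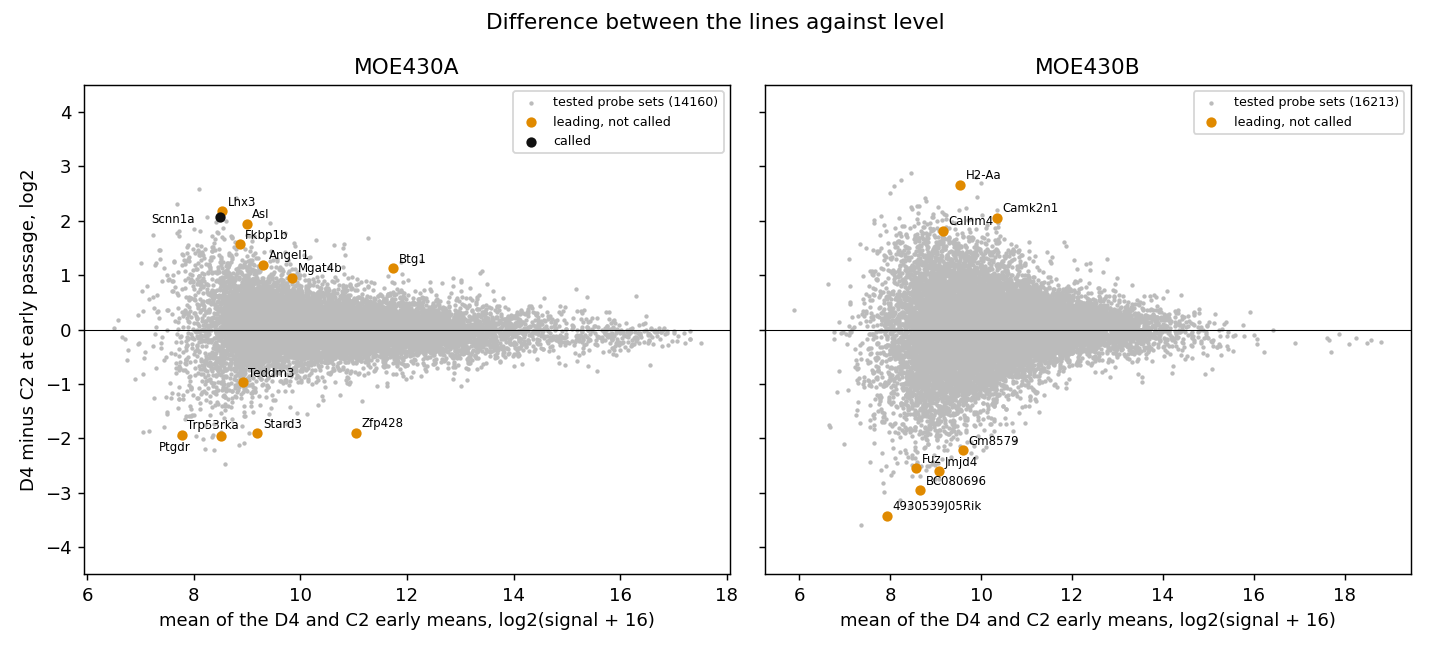
The difference D4 minus C2 at early passage (vertical axis, log2) against the mean of both lines' levels (horizontal axis, log2(signal + 16)) for each tested probe set, with MOE430A on the left and MOE430B on the right. Scnn1a is the 1 called probe set (black), the other 19 leading probe sets are orange, and the cloud of differences is widest among dim probe sets.

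Scnn1a had levels of 9.79, 9.64 and 9.13 in D4, against 7.73, 7.17 and 7.44 in C2. The groups did not overlap, and all 3 C2 values lay below the median of their arrays. The difference was 2.07 ± 0.28 (SE, n = 3 RNAs per line; 95% interval 1.47 to 2.67; 4.20-fold; limma adjusted p = 0.0465). The call did not hold under 21 of the 29 other ways of processing that gave a value. There the adjusted p in limma reached 0.780. Over all 29 ways the difference lay between 1.81 and 2.26, but many of them, such as leaving out a late RNA, cannot change it. In a fit of the 6 early arrays alone its adjusted p in limma was 0.219. Scnn1a is represented by 1 probe set, on chromosome 6.

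The line difference at Scnn1a ran the other way in late-passage cells. Attached cells had 8.84, 8.63 and 7.88 in D4, against 10.07, 9.67 and 9.72 in C2. The 7.88 came from D4 replicate 3, the RNA with the highest Actb ratio. Detached cells had 8.87 and 8.05 in D4, against 9.46, 9.46 and 9.38 in C2. In both late states every D4 value lay below every C2 value, by a difference of -1.37 ± 0.28 in attached cells (limma adjusted p = 0.259) and of -0.98 ± 0.31 in detached cells (limma adjusted p = 1.00), neither of which passed. The test of the change itself passed for attached cells, where the early line difference exceeded the late one by 3.44 ± 0.40 (limma adjusted p = 0.00699), the 1 probe set of 14160 to do so (0.00706%). For detached cells the excess was 3.05 ± 0.42 and did not pass (limma adjusted p = 0.0574). No other probe set passed either test, and 0 passed on MOE430B (0%). At an unadjusted p under 0.05 in limma, 1299 probe sets stood out against attached (9.17%) and 584 against detached cells (4.12%) on MOE430A, and on MOE430B 955 against attached (5.89%) and 641 against detached cells (3.95%). Fluidics runs and days of the arrays also differed between these groups. On MOE430A no run held early arrays of both lines, so a random run term cannot separate line from run. With that term the change at Scnn1a against attached cells had a limma adjusted p of 0.00553. The part of run and day in the result was not tested.

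Camk2n1, an inhibitor of the calmodulin-dependent kinase CaMKII, came closest to a call on MOE430B. One of its probe sets had 11.67, 11.03 and 11.43 in D4, against 9.56, 9.43 and 8.96 in C2. The difference was 2.06 ± 0.28 (SE, n = 3 RNAs per line; 95% interval 1.45 to 2.66; 4.16-fold; limma adjusted p = 0.0669). In late-passage cells the lines lay close together at this probe set, with a difference of -0.15 in attached and of 0.22 in detached cells. The low values were those of early C2, since late C2 cells had 11.20 to 11.34 when attached and 10.80 to 11.22 when detached. A second Camk2n1 probe set was at 12.70, 12.40 and 12.20 in D4, against 12.39, 12.08 and 12.07 in C2, a difference of 0.25 with overlap.

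**Figure D2:**
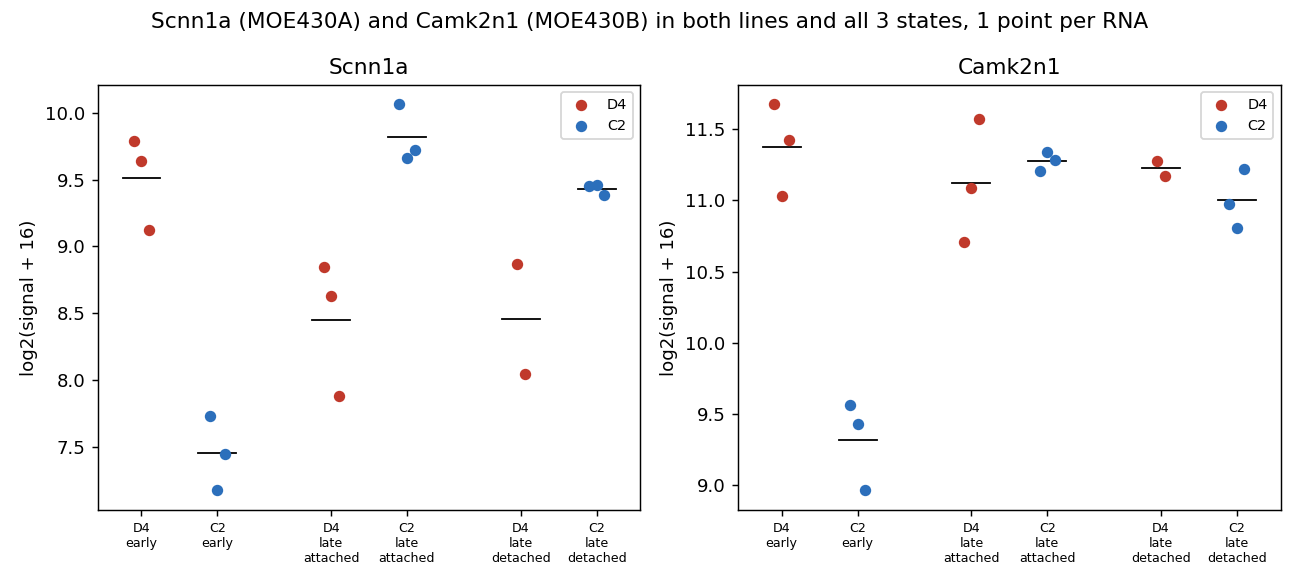
Levels of Scnn1a (left, MOE430A) and Camk2n1 (right, MOE430B) in log2(signal + 16), with 1 point per RNA and a line at the mean, D4 in red and C2 in blue. Early C2 is the lowest group at both genes, and Scnn1a is higher in D4 than in C2 at early passage and lower in both late states.

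The other 18 leading probe sets did not pass the test and are given as values. They are the ones with the smallest unadjusted p in each direction among probe sets with 1 gene symbol, a mean level above 8 in the brighter line and no overlap between the lines. Non-overlap is therefore a condition of the choice.

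On the side where D4 was above C2, the widest difference was at H2-Aa. H2-Aa, an MHC class II alpha chain, had 11.65, 11.12 and 9.84 in D4, against 8.54, 7.82 and 8.25 in C2 (difference 2.67). Its other probe set, on MOE430A, ran the opposite way with overlap, at 5.27, 7.19 and 6.22 in D4 and 8.21, 6.98 and 9.08 in C2. The 2 probe sets of H2-Aa therefore disagree on the direction. Lhx3, a LIM-homeodomain factor of pituitary and motor neuron development, had 9.92, 9.63 and 9.33 in D4, against 7.09, 7.77 and 7.49 in C2 (difference 2.18). Its second probe set had the same direction without overlap, at 9.46, 8.94 and 8.65 in D4 and 7.72, 7.84 and 8.56 in C2. At the second probe set the lowest D4 value (8.65) and the highest C2 value (8.56) lay next to each other. The lack of overlap at the first was a condition of the choice, and its limma adjusted p of 0.536 did not pass. At the first probe set Lhx3 was below the array median in all 3 C2 RNAs.

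Fkbp1b, which binds the ryanodine receptor calcium channel, had 9.51, 10.08 and 9.36 in D4, against 8.56, 7.36 and 8.32 in C2 (difference 1.57). Calhm4, of the calcium homeostasis modulator family, had 10.23, 9.88 and 10.07 in D4, against 8.04, 8.33 and 8.37 in C2 (difference 1.82). Both were dim in C2, below the array median on all 3 arrays. Btg1, an antiproliferative protein, was bright in both lines, at 12.28, 12.55 and 12.09 in D4 and 11.51, 10.73 and 11.30 in C2 (difference 1.13). One of its other probe sets had a difference of 0.81 without overlap, and the MOE430B one a difference of -0.96 with overlap. The probe sets of Btg1 thus do not share a direction. Asl, argininosuccinate lyase of the urea cycle, had 10.27, 9.87 and 9.75 in D4, against 8.0, 7.75 and 8.31 in C2 (difference 1.94), and was dim in C2. Mgat4b, which adds a branch to N-glycans, had 10.49, 10.22 and 10.25 in D4, against 9.17, 9.24 and 9.69 in C2 (difference 0.95). Angel1 had 10.02, 9.82 and 9.85 in D4, against 8.20, 8.59 and 9.33 in C2 (difference 1.19), with C2 replicate 3 nearest to D4.

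On the side where D4 was below C2, Fuz and Jmjd4 had the smallest unadjusted p. Fuz, a planar cell polarity effector needed for cilia, had 6.81, 7.52 and 7.57 in D4, against 9.89, 10.02 and 9.64 in C2 (difference -2.55). Jmjd4, a JmjC-domain hydroxylase, had 7.53, 8.01 and 7.80 in D4, against 9.57, 10.52 and 11.07 in C2 (difference -2.61). In each case another probe set of the gene had a difference of the opposite sign with overlap, 0.19 for Fuz and 1.04 for Jmjd4. Stard3, a sterol carrier of late endosomes, had 7.86, 9.23 and 7.63 in D4, against 10.14, 10.41 and 9.89 in C2 (difference -1.91). Ptgdr, a prostaglandin D2 receptor, had 7.44, 8.20 and 6.93 in D4, against 9.71, 8.82 and 9.94 in C2 (difference -1.97). Zfp428, a zinc finger protein, was the one gene of this side whose levels lay above the array median in every early RNA, at 10.46, 9.94 and 9.89 in D4 and 11.23, 12.70 and 12.05 in C2 (difference -1.89).

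The remaining genes on that side were dim in D4. Trp53rka, a kinase of the p53-regulating PRPK type, had 6.64, 6.79 and 7.0 in D4, against 8.96, 8.08 and 9.19 in C2 (difference -1.94). It lay below the array median in every early RNA of both lines, so it entered the test through late arrays. Teddm3 had 8.48, 8.22 and 8.59 in D4, against 9.33, 9.26 and 9.63 in C2 (difference -0.97). The transcripts BC080696, Gm8579 and 4930539J05Rik had differences of -2.96, -2.22 and -3.42. A second probe set of 4930539J05Rik had a difference of 0.49 with overlap.

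**Figure D3:**
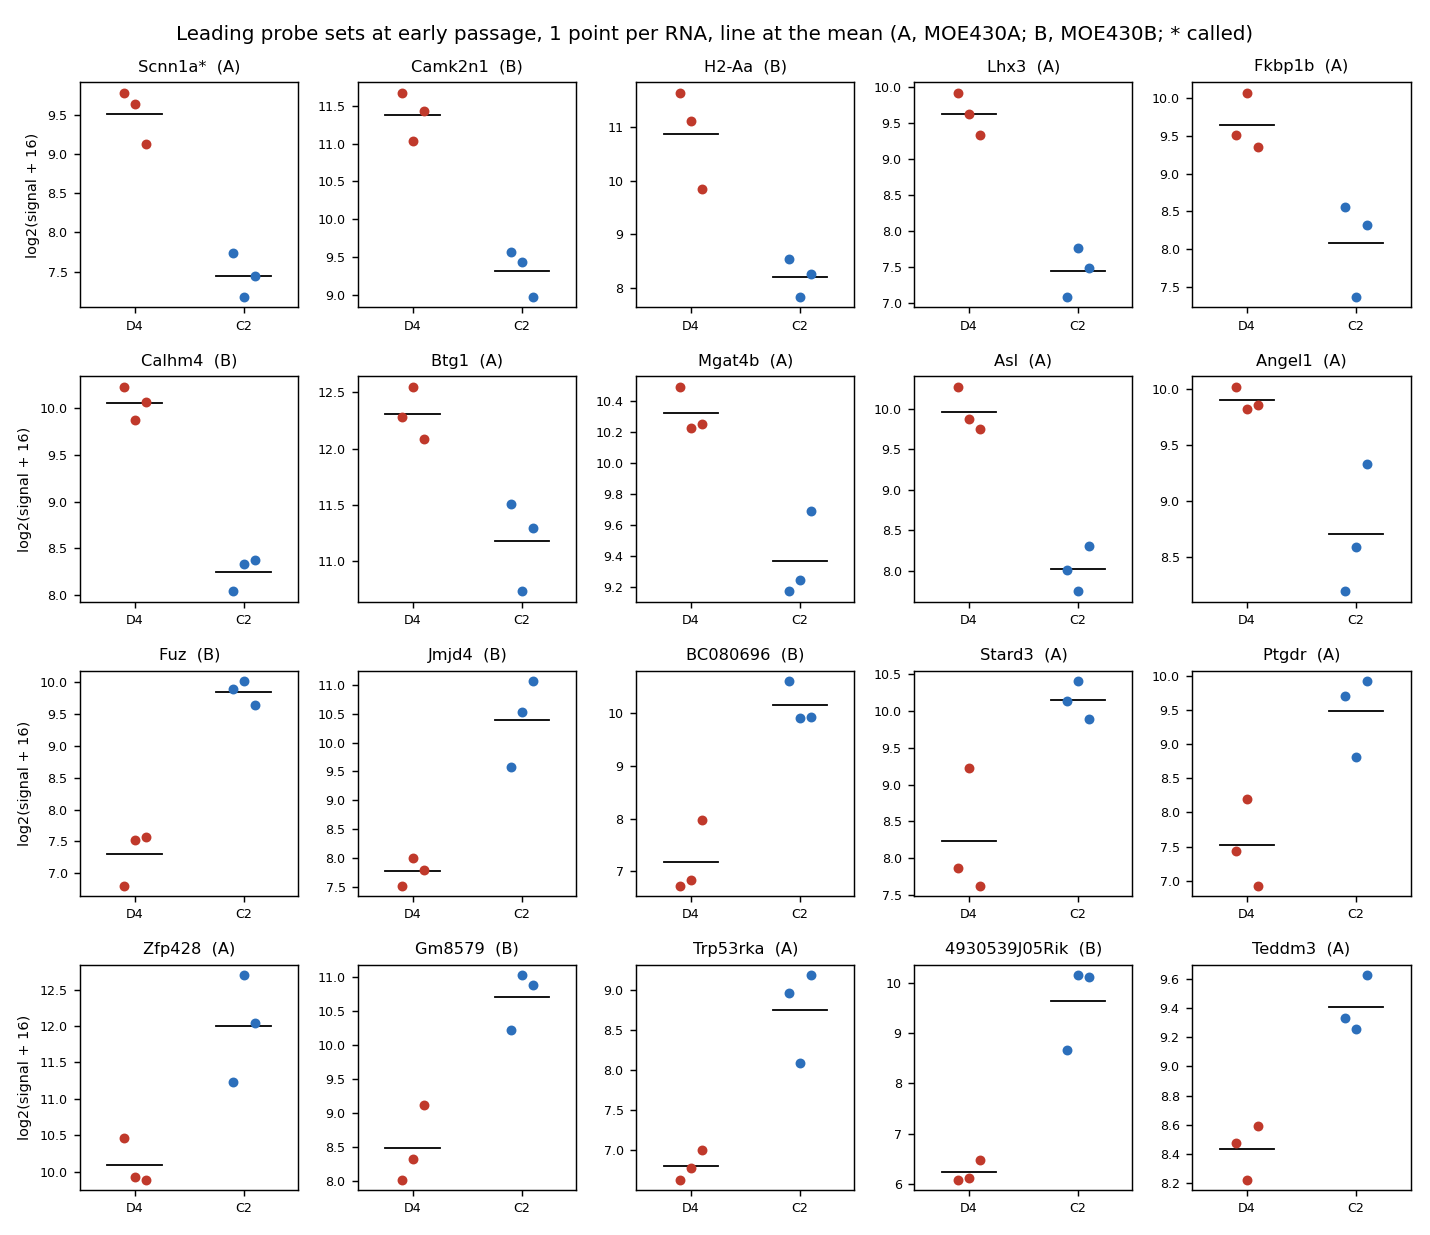
Levels of the 20 leading probe sets in the 6 early-passage RNAs, in log2(signal + 16), with D4 in red on the left, C2 in blue on the right, 1 point per RNA and a line at the mean. The vertical scale differs between panels, Scnn1a is the 1 called gene, and the absence of overlap is a condition of the choice.

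Most of the 20 leading probe sets were dim in one line. In 17 of them the lower line lay below the array median on all 3 arrays. Among these, Trp53rka lay below it on all 3 arrays of the higher line too. In 2, Btg1 and Zfp428, both lines lay above it on every early array. Of the 7 genes with another tested probe set, 2 (Camk2n1 and Lhx3) had the same direction on it, and 5 had at least 1 probe set of the opposite direction. The direction at early passage was also set against the late-passage cells, which are other RNAs. It was the same in late attached cells for 14 of 20 (70%), in late detached cells for 7 of 20 (35%) and in both for 6 of 20 (30%). Over all 30373 tested probe sets these shares were 49.5%, 49.2% and 28.5%. For the 8 leading probe sets on MOE430B, 1 chip lot held all 3 D4 arrays and C2 replicate 2. Within that lot the sizes of the difference were 1.73 to 3.94, none passed, and the smallest limma adjusted p was 0.324. Within the 1 fluidics run that held both lines (D4 replicate 3 and C2 replicate 2) the sizes were 1.74 to 3.68. The direction of these values is fixed by the choice of probe sets without overlap, and their C2 side is 1 array.

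The genes that define pluripotency were high in both lines and none was called. At gene level 1 of 14105 genes was called with D4 higher (0.00709%) and 0 with D4 lower. Pou5f1, the POU factor at the centre of the network, had 13.14, 13.53 and 13.88 in D4, against 13.85, 13.94 and 13.35 in C2. Sox2, its partner, had 12.17, 13.02 and 12.87 in D4, against 12.99, 12.49 and 12.26 in C2. The lines overlapped at both, with differences of -0.20 (95% interval -0.70 to 0.30) for Pou5f1 and 0.11 (95% interval -0.44 to 0.66) for Sox2. Nanog, the homeobox factor that guards the naive state, had 13.07, 13.98 and 13.32 in D4, against 12.82, 11.89 and 13.03 in C2. All 3 D4 values were above those of C2, by 0.87 ± 0.33, but the limma adjusted p was 0.729. Among the factors downstream, Esrrb had a difference of 0.06, Klf4 of 0.30 and Zfp42 of 0.11, all with overlap. The other probe sets of Esrrb had differences of 0.54 on MOE430A and 0.41 on MOE430B, and that of Klf4 had 0.04. These also overlapped.

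Of the 23 naive pluripotency genes measured, 0 were called, 2 did not overlap (8.70%, against 10.2% of the 14105 genes at their brightest probe set, 5.57% with D4 above and 4.62% with D4 below) and 15 had a positive difference, as had 53.7% of all genes. The list's median difference was 0.11, against 0.03 over all genes. Pecam1, an adhesion molecule of ES cells, was the other gene without overlap, at 10.81, 10.70 and 10.37 in D4 and 10.16, 10.00 and 10.13 in C2. Nr0b1, an orphan receptor expressed in ES cells, had the lowest difference of the list, -0.87 with overlap. The list's median was -0.06 without D4 replicate 2 and 0.38 without D4 replicate 1. Among genes of the LIF pathway, Lifr and Stat3, the receptor and its transcription factor, differed by -0.02 and 0.00. The activity of the pathway was not measured. Socs3, the feedback inhibitor of the pathway, differed by -0.48 at one probe set and by -0.06 and -0.13 at its others, all with overlap.

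Of 21 general pluripotency genes, 0 were called and 9 had a positive difference (median -0.07). Rif1, a telomere-associated protein bound up with the ES cell state, had 12.20, 12.62 and 11.93 in D4, against 11.87, 11.41 and 11.26 in C2. Lin28a, which blocks let-7 maturation, had 12.35, 12.32 and 12.25 in D4, against 12.04, 11.80 and 12.08 in C2. These 2 were the members without overlap (9.52%, against 10.2% of all genes), and neither passed. The other 3 probe sets of Rif1 had differences of 0.32, 0.32 and -0.04, all with overlap. The list's median was -0.26 without C2 replicate 3 and 0.08 without D4 replicate 1.

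Genes of the FGF and ERK response had lower values in D4 more often than not. Of 18 measured, 0 were called, 12 had a negative difference and the median was -0.25, against 0.03 over all genes. The groups did not overlap at 4 (22.2%, against 10.2% of all genes). Myc, a growth-promoting transcription factor that also belongs to the immediate early and Wnt response lists, had 8.86, 9.38 and 9.81 in D4, against 11.31, 11.56 and 9.82 in C2. The highest D4 value and the lowest C2 value, both from replicate 3, lay next to each other, and the difference was -1.55 ± 0.47 (limma adjusted p = 0.688). Etv4, an ETS factor induced by FGF, had 10.12, 10.72 and 11.04 in D4, against 11.15, 11.63 and 11.43 in C2, while its MOE430B probe set had a difference of 0.16 with overlap. Phlda1, another target of ERK, had 10.22, 10.19 and 10.37 in D4, against 10.81, 11.21 and 10.38 in C2. Egr1, the immediate early zinc finger factor, stood on the other side, at 12.38, 12.54 and 12.11 in D4 and 12.00, 11.54 and 11.59 in C2. The feedback inhibitors Spry4, Spry2 and Dusp6 had differences of -1.43, -0.44 and -0.56, all with overlap. The ligand Fgf4 had a difference of 0.45, also with overlap. The list's mean was 10.71, 11.09 and 10.76 in D4 and 11.23, 11.32 and 10.80 in C2, so that C2 replicate 3 lay among the D4 values. The list's median was -0.11 over all tested probe sets of the list, -0.10 without C2 replicate 2 and -0.38 without D4 replicate 2.

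**Figure D4:**
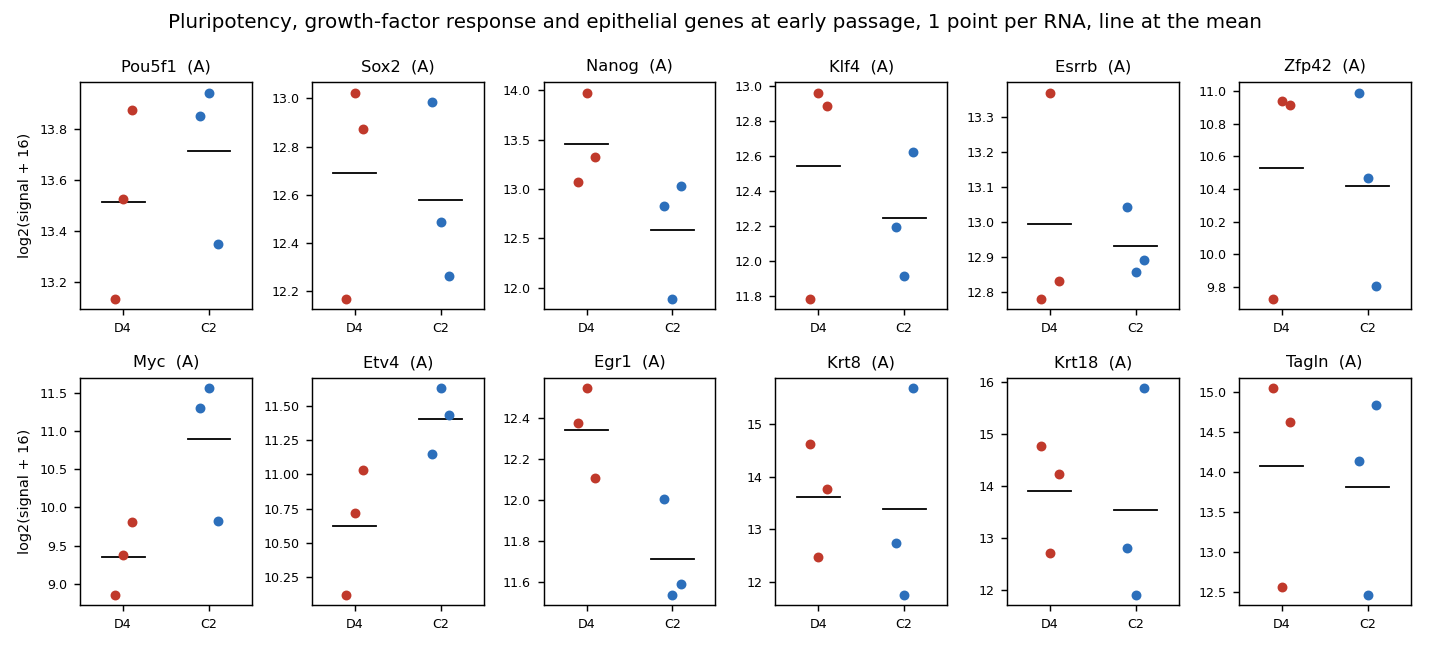
Levels of 12 MOE430A genes in the 6 early-passage RNAs, in log2(signal + 16), with D4 in red on the left, C2 in blue on the right, 1 point per RNA and a line at the mean. Pou5f1 and Sox2 overlap, Nanog and Egr1 lie above and Myc and Etv4 below in D4, and Krt8, Krt18 and Tagln spread more within a line than between the lines, with none of the 12 called.

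The lists of lineage genes gave no call. Of 20 extraembryonic endoderm genes, 10 had a positive and 10 a negative difference, and 2 did not overlap (10%, against 10.2% of all genes). These were Srgn, the proteoglycan serglycin, at 4.94, 7.46 and 7.24 in D4 and 8.08, 9.19 and 7.75 in C2, and Cubn, the endocytic receptor cubilin, at 6.36, 7.92 and 5.93 in D4 and 8.46, 8.31 and 7.99 in C2. Both were near or below the array median in both lines, and the other probe set of Cubn had a difference of -0.17. Gata4, an endoderm factor, differed by 0.09. Its relative Gata6 differed by -0.72 at its brightest MOE430A probe set and by 0.66 at its MOE430B one, both with overlap. The other MOE430A probe set of Gata6 had 6.82, 7.60 and 7.78 in D4, against 8.15, 8.51 and 8.77 in C2, a difference of -1.07 without overlap.

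Of 11 neuroectoderm genes, 3 did not overlap (27.3%, against 10.2% of all genes) and these did not share a direction. Sox3, a neural SOXB1 factor, had 9.08, 9.38 and 8.95 in D4, against 9.47, 10.82 and 9.94 in C2. Pax6, a regulator of eye and forebrain, had 9.10, 9.30 and 9.27 in D4, against 8.77, 7.80 and 8.78 in C2. Msi1, an RNA-binding protein of neural progenitors, had 10.20, 9.65 and 10.00 in D4, against 9.26, 9.62 and 9.35 in C2. At these probe sets Sox3 thus lay lower, and Pax6 and Msi1 higher, in every D4 RNA. The lowest D4 value of Msi1 (9.65) and its highest C2 value (9.62) lay next to each other. The other Sox3 probe set overlapped, at 6.74, 7.73 and 8.65 in D4 and 9.32, 9.58 and 8.38 in C2. In the trophoblast list of 10, Tfap2c, an AP-2 factor, was the 1 gene without overlap (10%, against 10.2% of all genes). Tfap2c had 10.79, 10.67 and 10.71 in D4, against 10.23, 10.10 and 10.61 in C2. Its other 2 probe sets had differences of 1.15 and 0.88, again without overlap, so all its probe sets share the direction. In the mesoderm list of 9, Tbx6, a T-box factor, was the 1 gene without overlap (11.1%, against 10.2% of all genes). Tbx6 had 8.85, 8.86 and 8.64 in D4, against 8.92, 9.19 and 9.79 in C2.

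Feeder fibroblast genes had higher values in D4 on average, without a call. Of 26 measured, 23 had a positive difference (median 0.30, against 0.03 over all genes), and 2 did not overlap (7.69%, against 10.2%). The list's mean level was 12.09, 11.43 and 11.86 in D4 and 11.83, 11.07 and 11.60 in C2, and the groups overlapped. The median was 0.06 without C2 replicate 2 and 0.51 without D4 replicate 2. The summed intensity of the list ran between 107278 and 281485 in D4 and between 99394 and 176050 in C2. Defining fibroblast genes were far from the floor in both lines. Col1a1, a fibrillar collagen chain, had 13.61, 12.33 and 12.49 in D4, against 12.91, 11.84 and 12.12 in C2. Thy1, a fibroblast surface antigen, had 12.47, 12.13 and 12.24 in D4, against 12.11, 11.82 and 11.90 in C2. Mmp2, a gelatinase, had 10.96, 11.00 and 11.15 in D4, against 10.64, 10.48 and 10.52 in C2. Its other probe set overlapped, at 11.01, 10.60 and 10.60 in D4 and 10.52, 10.66 and 10.15 in C2. The labels give the higher purity to D4. In bulk RNA, more cells of a type and more RNA per cell cannot be told apart. With the feeder list's mean as a covariate, the Scnn1a difference was 2.17 (limma adjusted p = 0.0597).

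The contractile and serum response genes, the keratins and the junction genes varied widely between RNAs of a line. Of 25 contractile and serum response genes, 21 had a positive difference, as had 53.7% of all genes (median 0.30, against 0.03 over all genes). In this list 0 were called and 2 did not overlap (8%, against 10.2% of all genes). Thbs1, the matricellular protein thrombospondin, had 14.59, 13.31 and 13.78 in D4, against 13.17, 12.34 and 13.03 in C2, and its second probe set was also separated, by 0.94. Ccn1, a secreted YAP and SRF target, had 12.73, 12.59 and 12.19 in D4, against 11.93, 11.35 and 12.12 in C2. A second MOE430A probe set of Ccn1 was separated by 0.81, and its 2 MOE430B ones had differences of -0.29 and -0.42 with overlap. The list's mean was 13.46, 12.24 and 12.81 in D4 and 12.61, 11.87 and 13.00 in C2, with D4 replicate 1 highest. Without that RNA the list's median was 0.00, and without D4 replicate 2 it was 0.60.

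Krt8 and Krt18, the keratin pair of simple epithelia, spread widely within each line. Krt8 had 14.62, 12.47 and 13.76 in D4, against 12.74, 11.76 and 15.68 in C2. Krt18 had 14.77, 12.72 and 14.22 in D4, against 12.82, 11.92 and 15.88 in C2. C2 replicate 3 was the highest RNA at both genes and C2 replicate 2 the lowest. Krt19 moved with them, at 11.03, 6.90 and 10.23 in D4 and 7.07, 6.96 and 12.10 in C2. Of the 19 keratin and junction genes, 17 had a positive difference (median 0.26) and 0 were free of overlap (0%, against 10.2%). The list's median was -0.04 without D4 replicate 1 and 0.52 without C2 replicate 3.

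**Figure D5:**
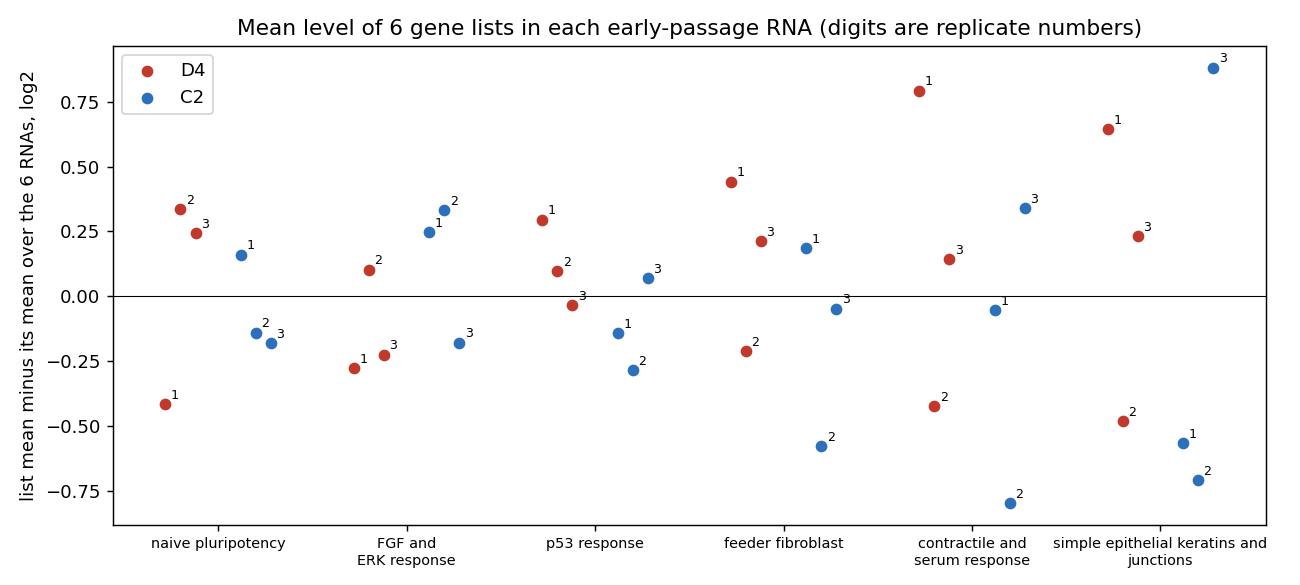
Mean level of 6 gene lists in each early-passage RNA, less its mean over the 6 RNAs (log2, vertical axis), with D4 in red on the left and C2 in blue on the right of each list and replicate numbers beside the points. The lines overlap in all 6 lists, D4 replicate 1 and C2 replicate 3 are high for the keratin and contractile lists, and C2 replicate 2 is low for them.

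Over the arrays as a whole, correlations of RNAs within a line and between the lines had overlapping ranges. Pairs of RNAs correlated across probe sets at 0.908 to 0.929 within D4, at 0.886 to 0.919 within C2 and at 0.879 to 0.936 between the lines on MOE430A. On MOE430B the ranges were 0.767 to 0.806 within D4, 0.710 to 0.766 within C2 and 0.718 to 0.791 between the lines. These correlations are across probe sets, which are not independent replicates. On the first principal component of MOE430A, D4 replicate 1 (40.3) and C2 replicate 3 (30.1) lay at one end, and C2 replicate 2 (-49.4) at the other. On MOE430B the first component set C2 replicate 3 (-101) apart from all other early RNAs, which lay between 8.88 and 29.0.

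Genes of the interferon response and of antigen presentation had higher values in D4 for 13 of 17 measured, with a median of 0.27 and 0 called. The median was 0.11 over all tested probe sets of the list, 0.17 without C2 replicate 1 and 0.48 without C2 replicate 3. The groups did not overlap at 2 (11.8%, against 10.2% of all genes). B2m, the light chain of MHC class I, had 12.96, 13.02 and 12.62 in D4, against 12.17, 11.46 and 12.32 in C2, and a second probe set was separated by 0.78. Ifitm3, an interferon-induced membrane protein that also marks germ cells, had 13.87, 14.06 and 13.78 in D4, against 13.47, 13.26 and 13.66 in C2. The MHC class I heavy chains H2-D1 and H2-K1 differed by 0.77 and 0.27, both with overlap. Oas1a, an interferon-induced enzyme, ran the other way, by -0.87 with overlap.

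Of 20 genes of the p53 response, 17 had a positive difference, as had 53.7% of all genes (median 0.21, against 0.03 over all genes). In this list 0 were called and 2 did not overlap (10%, against 10.2% of all genes). The median was 0.13 without D4 replicate 1 and 0.32 without D4 replicate 3. Rrm2b, the p53-induced ribonucleotide reductase subunit, had 10.08, 10.12 and 10.23 in D4, against 8.85, 9.86 and 9.49 in C2. Its MOE430B probe set was separated by the same 0.74. Phlda3, an AKT inhibitor induced by p53, had 13.14, 12.62 and 12.69 in D4, against 12.39, 12.34 and 12.29 in C2. Neither passed, with limma adjusted p of 0.729 for Rrm2b and 0.753 for Phlda3.

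Among 15 germ line genes, 0 were called and 2 did not overlap (13.3%, against 10.2% of all genes), Ifitm3 and Prdm1. Prdm1, the repressor that specifies primordial germ cells, had 10.53, 10.56 and 10.06 in D4, against 9.43, 9.79 and 9.62 in C2. Dppa3, a maternal factor of germ cells and early embryos, overlapped, at 12.02, 11.99 and 12.25 in D4 and 11.28, 10.52 and 12.39 in C2. Stra8, a retinoic acid target in meiosis, differed by -0.04.

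Imprinted genes and the DNA methylation machinery, which can drift in cultured ES cells, held 0 called genes. Of 25 imprinted genes, 14 had a positive difference (median 0.12, and -0.09 without D4 replicate 1). Igf2, the paternally expressed growth factor, had 12.55, 10.84 and 11.43 in D4, against 11.38, 10.91 and 11.76 in C2. Meg3, the maternal noncoding RNA of the Dlk1 locus, differed by 0.05, Mest by -0.11 and Peg3 by -0.14, all with overlap at their brightest probe sets. Another Meg3 probe set had a difference of -0.61, with every D4 value below those of C2. The 1 imprinted gene without overlap (4%, against 10.2% of all genes) was Zdbf2, at 13.08, 13.09 and 12.95 in D4 and 13.21, 13.21 and 13.24 in C2, a difference of -0.18. Of 28 DNA methylation and chromatin genes, 11 had a positive difference (median -0.09). The median was -0.17 without C2 replicate 3 and 0.05 without C2 replicate 2. The de novo methyltransferase Dnmt3a differed by -1.04 and its cofactor Dnmt3l by -0.55, both with overlap. C2 replicate 2 was the highest RNA at both, at 13.39 for Dnmt3a and 14.38 for Dnmt3l. Uhrf1, which recruits the maintenance methyltransferase, was separated by 0.18 at one probe set and had -0.07 with overlap at the other.

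The metabolic and proliferation lists gave no call. Cholesterol synthesis genes had a median of 0.07, with Lss, lanosterol synthase, at 10.69, 10.94 and 10.73 in D4 and 11.49, 11.24 and 11.28 in C2. Nsdhl, a later enzyme of the same pathway, ran the other way, at 11.05, 10.95 and 11.20 in D4 and 10.73, 10.74 and 10.24 in C2. Hypoxia and glycolysis genes had a median of -0.05, with the glycolytic enzymes Aldoa and Tpi1 at -0.28 and -0.38. The other probe sets of Aldoa had differences of 0.06, -0.24, -0.06 and -0.09, all with overlap. Those of Tpi1 had -0.16 and -0.17, also with overlap. Leaving out 1 early RNA moved the cholesterol median between -0.01 (without D4 replicate 3) and 0.18 (without D4 replicate 2), and the hypoxia and glycolysis median between -0.21 (without D4 replicate 1) and 0.06 (without D4 replicate 2). Cell cycle genes had a median of 0.04 (-0.04 without C2 replicate 3), with the G1 kinases Cdk4 and Cdk6 at -0.38 and -0.56. Genes of the amino acid and ER stress response had a median of 0.19 with 20 of 26 positive, and 0.06 without D4 replicate 1. They included the cysteinyl-tRNA synthetase Cars at 12.77, 12.47 and 12.28 in D4 and 12.08, 11.79 and 11.96 in C2. Catalase, Cat, had 11.05, 11.12 and 11.24 in D4, against 10.95, 10.43 and 10.50 in C2. Its other probe set had a difference of 0.60 with overlap. None of these genes was called.

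Over the autosomes and the X, the median difference by chromosome ran from 0.00 on chromosome 2 to 0.07 on the X, against 0.03 for all genes. The 2 tested genes of the Y had a median of -0.03. Xist, the RNA that coats the inactive X, had 9.63, 10.10 and 9.74 in D4, against 9.55, 9.60 and 9.81 in C2 at its 1 tested probe set, a difference of 0.17 with overlap. Its other 2 probe sets lay below the array median on every array. The Y-linked genes Eif2s3y, Kdm5d and Uty also lay below the median of all 17 MOE430A arrays and were not tested. Eif2s3y had levels between 6.71 and 7.74 in D4 and between 8.48 and 8.67 in C2. Uty overlapped at both probe sets, with means of 8.601 in D4 and 8.475 in C2 at one, and 8.098 and 8.449 at the other. One Kdm5d probe set had 6.456 to 7.876 in D4 and 7.893 to 8.937 in C2. The others of Kdm5d overlapped, with means of 7.659 in D4 and 7.202 in C2, and of 6.275 and 6.737. Nnt, a mitochondrial transhydrogenase partly deleted in one C57BL/6 substrain, had 11.82, 12.20 and 11.20 in D4, against 11.54, 12.11 and 11.00 in C2. Whether its probes lie in the deleted part is not given in the sources used here.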

How the data were processed

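Total RNA of 17 ES cell samples was measured on MOE430A and MOE430B arrays. The deposited table holds 1 linear signal intensity for each probe set and array; MAS5 is the tool in the submitters' processing notes, and its version is not given in the sources used here. MAS5 scales each array alone, and the 2% trimmed mean of the deposited intensity was about 1500 on each. No counts or depth exist, so the number of arrays limits the precision.

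From these intensities log2(signal + 16) was computed, which understates changes of dim probe sets. Control probe sets were left out. Each array type was fitted with limma 3.58.1 in R 4.3.3 on all 17 arrays, with 1 coefficient per line and state. Contrasts were D4 minus C2 at early passage, and that difference less the one in late attached or late detached cells. Tests were two-sided and adjusted by Benjamini-Hochberg within the array type, with a call at an adjusted p under 0.05. The fit was tested on simulated data. Days, chip lots and fluidics runs came from the arrays' scanner headers; runs were inferred from station and logged times, split at gaps over 30 minutes.

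Symbols came from the platform annotation, updated by gene identifier from the GRCm38.p6 gene table. Of 22690 MOE430A probe sets 20393 had 1 symbol, 691 several and 1606 none, and of 22575 on MOE430B the numbers were 14674, 245 and 7656. Only probe sets with 1 symbol are named. In lists, a gene is its brightest tested probe set, MOE430A first. Genes were named by this rule: up to 10 called probe sets per direction, places left filled by the smallest unadjusted p among probe sets without overlap and above 8 in the brighter line; up to 4 members per list, called first, then without overlap by size; a fixed set of ES cell genes; and called changes between states. Other list members that are named were chosen after their values were seen. The comparison, the gene lists and the tests were chosen with earlier results of these data known.

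Replicate numbers were checked for pairing. Deviations of same-numbered D4 and C2 RNAs correlated at -0.15 to 0.13 on MOE430A and -0.04 to 0.04 on MOE430B, so the numbers were not taken to pair them. Alternatives tried were other pseudocounts, filters, normalization, weights, batch terms, a replicate block, a feeder covariate and leaving out each RNA.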

Additional observations from a re-analysis of the deposited data

Results flagged for a closer look

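Scnn1a differed between the states in its line difference. D4 minus C2 was 2.07 at early passage and -1.37 in late attached cells, and the difference between these was 3.44 ± 0.40 (limma adjusted p = 0.00699). At early passage all 3 D4 RNAs lay above all 3 C2 RNAs, and in late attached cells all 3 D4 RNAs lay below all 3 C2 RNAs. Early C2 was the lowest of the 6 groups, with a mean of 7.45.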

How the results depend on the processing

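The 1 early-passage call on MOE430A became 0 with a pseudocount of 64, a 75th percentile filter (which leaves Scnn1a out), quantile normalization, the 6 early arrays alone, array weights, an intensity trend or the feeder covariate. Without the filter the count stayed at 1, but the probe set was one of Dynlt1f and not of Scnn1a. Leaving out 1 RNA gave 0 to 1 calls; 13 of the 17 omissions ended the Scnn1a call (all but D4 late attached replicates 1 and 3 and D4 late detached replicates 1 and 3), with limma adjusted p of 0.0149 to 0.236. On MOE430B, 0 calls became 1 (Camk2n1) with the 75th percentile filter, quantile normalization, an intensity trend or the run as a random block. Leaving out 1 RNA gave 0 to 2 there, with 2 without C2 early replicate 2 (Fancd2 and Ehf) and 2 without D4 late attached replicate 3 (Camk2n1 and 4930539J05Rik).

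The change against late attached cells on MOE430A gave 0 calls instead of 1 with the 75th percentile filter, with an intensity trend, and without C2 late attached replicate 1 and D4 late attached replicate 3 together, a choice made after seeing the data. Leaving out 1 RNA gave 1 to 2, the 2 without D4 late attached replicate 1. On MOE430B, 0 became 1 with the 75th percentile filter and 3 with the run as a random block; leaving out 1 RNA gave 0 to 1, the 1 without D4 late attached replicate 2. Against late detached cells on MOE430A, 0 became 1 with array weights and without those 2 RNAs together. Leaving out 1 RNA gave 0 to 2, with 1 without D4 late attached replicate 3 and 2 without D4 late detached replicate 1. On MOE430B, 0 became 1 with the 75th percentile filter; leaving out 1 RNA gave 0 to 1, the 1 without D4 early replicate 3.

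With the replicate number as a block, which the check did not bear out as a pairing, the early calls were 1 on MOE430A (Scnn1a, limma adjusted p = 0.00705) and 0 on MOE430B. With the block on the 6 early arrays alone both counts were 0. The block gave 1 call against late detached cells on MOE430A, and changed no other count. The cause of these changes was not tested.

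Of 2535 alternative values of the 84 named genes, 39 had the other sign, and of 980 alternative list medians 41 had it. Many alternatives leave an early difference as it was, such as leaving out a late RNA, an intensity trend or the early arrays alone. Some batch terms were fitted on MOE430B only, and list medians then kept the main MOE430A values. Of the 2535 values, 617 belong to the leading genes, where non-overlap was a condition of the choice. The low counts of the other sign are therefore largely set in advance. The precision is limited by 3 RNAs per line.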
